A study of Rattus norvegicus with 2 samples.

Results

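The 10 miRNAs examined here are best known from neurons and endocrine cells, miR-375-3p apart, and were read on native HDL (nHDL) kept with or without INS-1 cells. They are miR-7a-5p, miR-9a-5p, miR-124-3p, miR-128-3p, miR-129-5p, miR-132-3p, miR-212-3p, miR-326-3p, miR-328a-3p and miR-488-3p. These names were chosen from knowledge of where the miRNAs are expressed and with the reads of these same libraries in view, so the gains given here are a description of the list and not a test of it. Of the 10 names, 9 have a row among the 406 rat miRNAs of the reads table, 6 have reads in either library, and the same 6 have at least 5 reads in 1 library, the minimum that 81 of the 406 reached. miR-7a-5p was not analysed here. INS-1 832/13 is a single clone of a rat insulinoma line used as a stand-in for pancreatic beta cells. In the INS-1-nHDL condition, the cells were kept at 3 mM glucose with 1 mg/mL of HDL from human plasma for 24 h, and in the cf-nHDL condition the same kind of HDL was kept in cell-free medium. By the labels, HDL was then recovered from the medium with an antibody to apolipoprotein A-I, its main protein, and its small RNA was sequenced. Each condition is 1 library made from a pool of 3 samples, so there is no spread between replicates and no test between the conditions, and every interval below covers counting error only.

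MicroRNAs are short RNAs that guide Argonaute proteins to mRNAs and lower their translation and stability, mostly through pairing of the seed, bases 2 to 8 from the 5′ end. Neurons and pancreatic endocrine cells share part of their miRNA repertoire, as they share machinery for regulated secretion. miR-375 is the abundant islet miRNA and restrains insulin secretion. Among the others, miR-9 and miR-124 are classic miRNAs of neural progenitors and neurons, and miR-132 and miR-212 come from 1 transcript that cAMP and CREB signalling induces. In blood, HDL carries small RNAs from many tissues.

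The mature sequences of the 9 listed miRNAs, as the reads table gives them with T for U, are shown with the seed in capitals, because the seed sets which mRNAs each one can pair with. The first 6 lines are the miRNAs with reads, from most to fewest reads on INS-1-nHDL, and the next 3 are those with none.
miR-328a-3p: cTGGCCCTctctgcccttccgt
miR-488-3p: tTGAAAGGctgtttcttggtc
miR-128-3p: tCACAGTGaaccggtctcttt
miR-132-3p: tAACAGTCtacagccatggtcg
miR-326-3p: cCTCTGGGcccttcctccagt
miR-129-5p: cTTTTTGCggtctgggcttgc
miR-9a-5p: tCTTTGGTtatctagctgtatga
miR-212-3p: tAACAGTCtccagtcacggcca
miR-124-3p: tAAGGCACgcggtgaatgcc
miR-375-3p, for comparison: tTTGTTCGttcggctcgcgtga

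Of the 9 sequences, 7 are the same in the RefSeq table of GRCr8, and miR-328a-3p and miR-124-3p have no entry there. The 6 detected miRNAs have 6 different seeds, and none has the seed of miR-375-3p. miR-132-3p and miR-212-3p have the same seed. They are identical at 17 of 22 positions and differ, counted from the 5′ end with the base of miR-132-3p first, by A10C, C14T, T17C, T20C and G22A. miR-326-3p shares its seed with miR-330-5p, and miR-328a-3p with miR-328b-3p, both listed at 0 reads in each library. miR-328b-3p is an 18-base form, cTGGCCCTctctgcccta, that matches miR-328a-3p over its first 17 bases and differs by T18A.

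The authors' coordinates, in the rat build that the study writes as rno5, place miR-328a-3p at chr19:48128936-48128957 on the minus strand and miR-326-3p at chr1:170722130-170722150 on the plus strand. miR-488-3p lies at chr13:81113002-81113022 on the plus strand. miR-212-3p and miR-132-3p lie on the plus strand at chr10:61729163-61729184 and chr10:61729443-61729464, with 258 bases between them. miR-128-3p maps to 2 places, chr13:50001755-50001775 on the plus strand and chr8:119718197-119718217 on the minus strand. miR-129-5p also maps to 2, chr4:56049100-56049120 on the plus strand and chr3:89838050-89838070 on the minus strand. In the gene table of GRCr8, a later assembly used for names only, the miR-326 gene lies inside Arrb1, which encodes beta-arrestin 1. The miR-488 gene lies inside Astn1, which encodes the neuronal adhesion protein astrotactin 1. The miR-128 genes lie inside R3hdm1 and Arpp21, a gene for a cAMP-regulated neuronal phosphoprotein. Whether these positions are exonic or intronic was not analysed here. The genes of miR-132 and miR-212 lie next to each other and inside no other gene of that table.

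The 2 genes that make miR-128-3p and the 2 that make miR-129-5p differ outside the mature miRNA, so its reads cannot be traced to either gene. The RefSeq hairpins show this, with the mature miRNA in capitals. They lie in GRCr8 at chr13:42251884-42251965 (plus strand), chr8:120963795-120963878 (minus strand), chr4:58589711-58589782 (plus strand) and chr3:100657390-100657486 (minus strand).
Mir128-1: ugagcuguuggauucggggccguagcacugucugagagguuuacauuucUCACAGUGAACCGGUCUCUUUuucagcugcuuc
Mir128-2: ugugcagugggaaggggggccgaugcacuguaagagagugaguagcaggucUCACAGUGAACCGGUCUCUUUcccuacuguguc
Mir129-1: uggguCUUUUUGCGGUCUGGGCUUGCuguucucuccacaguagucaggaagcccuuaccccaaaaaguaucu
Mir129-2: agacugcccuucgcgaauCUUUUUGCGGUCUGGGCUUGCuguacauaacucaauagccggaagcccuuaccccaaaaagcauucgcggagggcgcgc

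All 6 detected miRNAs had more reads with cells (INS-1-nHDL) than without (cf-nHDL), 9 to 35 against 0 or 1. Their reads summed to 114 with cells (exact Poisson 95% interval 94.0 to 136.9) against 2 without (0.242 to 7.22). The libraries hold 6585 and 18008 reads on miRNAs, and a miRNA with 0 reads could still make up 0.0456% of the cf-nHDL miRNA reads or 0.0167% of those from INS-1-nHDL (3 reads of the total). PCR reads without molecular identifiers are not independent molecules, which these intervals and limits do not cover. For fold changes, the reads were divided by DESeq2 size factors (0.710, cf-nHDL, and 1.41, INS-1-nHDL). At equal levels INS-1-nHDL would thus have 1.98 times the reads of cf-nHDL. After this division 45 of the 81 miRNAs with at least 5 reads were higher with cells, the 6 among them. The 6 passed that minimum only through INS-1-nHDL. A fold change against 0 reads is a lower bound, computed against 3 reads. It takes the INS-1-nHDL reads as counted, without their counting error, so the exact interval can start below it.

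**Figure D1:**
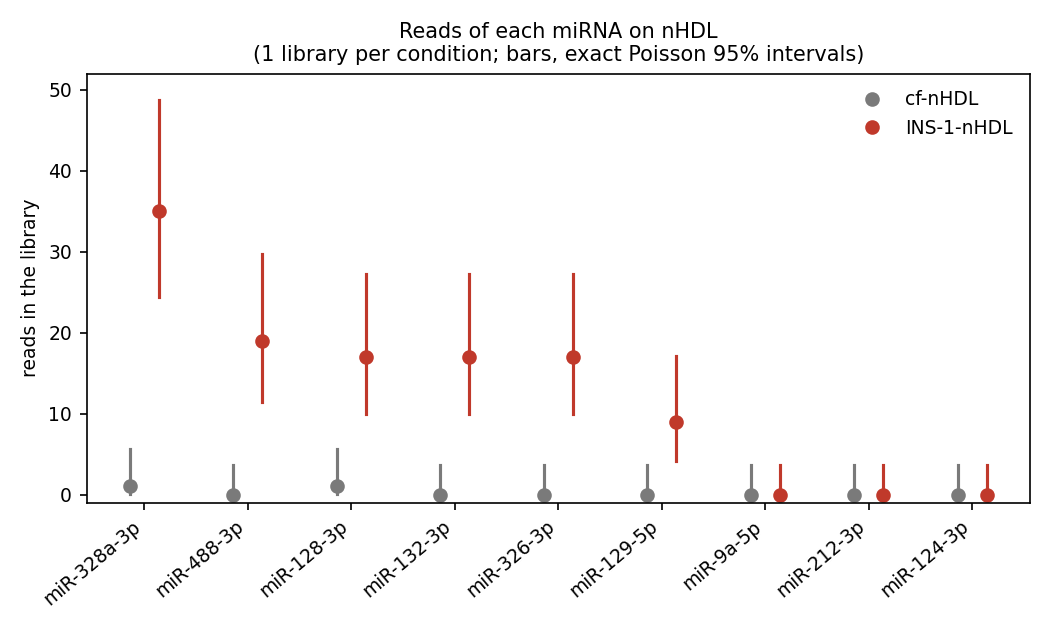
Reads of the 9 listed miRNAs (vertical axis) in the cf-nHDL library (grey) and the INS-1-nHDL library (red), with exact Poisson 95% intervals. The 6 detected miRNAs have 9 to 35 reads with cells against 0 or 1 without, and miR-9a-5p, miR-212-3p and miR-124-3p have 0 in both.

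miR-328a-3p, a miRNA well known from brain and also found in other tissues, led the list with 35 reads on INS-1-nHDL against 1 on cf-nHDL. These are 0.194% (Wilson 95% interval 0.140 to 0.270%) and 0.0152% (0.00268 to 0.0860%) of the respective miRNA reads. The fold change was 17.6 (exact 95% interval 2.96 to 716), whose width comes from the single read on cf-nHDL. An equal level would have given 17.6 reads on cf-nHDL. It ranked 29 among the miRNAs on INS-1-nHDL, above every other miRNA of the list.

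miR-488-3p, from within the neuronal gene Astn1, was read 19 times on INS-1-nHDL and not once on cf-nHDL (0 reads). It was at least 3.19-fold higher in the presence of cells, and the exact interval runs upward from 2.35 without an end. An equal level would have given 9.58 reads on cf-nHDL in place of 0. Its share of the INS-1-nHDL reads was 0.106% (Wilson 95% interval 0.0676 to 0.165%).

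miR-132-3p and miR-326-3p had 17 reads each on INS-1-nHDL, against 0 on cf-nHDL. Each was at least 2.86-fold higher with cells (exact interval from 2.08 upward). miR-132 is induced by neuronal activity and has been linked to insulin release in beta cells, while miR-326 lies in the beta-arrestin gene that many tissues express. miR-212-3p, the cluster partner of miR-132-3p with the same seed, had 0 reads in both libraries. Its upper limit on INS-1-nHDL is 3 reads by the rule for 0 reads, and 3.69 by the exact Poisson interval, below the interval of miR-132-3p there (9.90 to 27.2 reads). The partners therefore differed on INS-1-nHDL by more than counting error.

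miR-128-3p, one of the abundant miRNAs of brain, had 17 reads on INS-1-nHDL against 1 on cf-nHDL. The fold change was 8.57, and the exact interval of 1.34 to 358 lies above 1 but not above 1.5. Scaled by total miRNA reads instead, this interval started at 0.974 and held 1, while with miR-375-3p left out of that total it started at 2.49.

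miR-129-5p, which is known mainly from brain, had the fewest reads of the 6, 9 on INS-1-nHDL against 0 on cf-nHDL. Its bound against 3 reads was 1.51-fold, and the exact interval starts at 0.995, so counting error alone leaves an equal level possible. An equal level would have given 4.54 reads on cf-nHDL, and a difference of this size was at the edge of what the depth can show. Under total miRNA reads its bound was 1.097, with an interval from 0.722. With miR-375-3p left out of that total the bound was 2.81, with an interval from 1.85.

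miR-9a-5p and miR-124-3p, the miRNAs of the list that are most closely tied to neurons, had 0 reads in both libraries and were not detectable at this depth. A count of 0 does not show that they were absent, and a share of up to 0.0167% of the INS-1-nHDL reads remains possible for each. HDL is a particle and not a cell, so the name neuroendocrine describes where the 9 miRNAs are known from. Of these, miR-9a-5p and miR-124-3p were not seen on HDL in either condition.

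**Figure D2:**
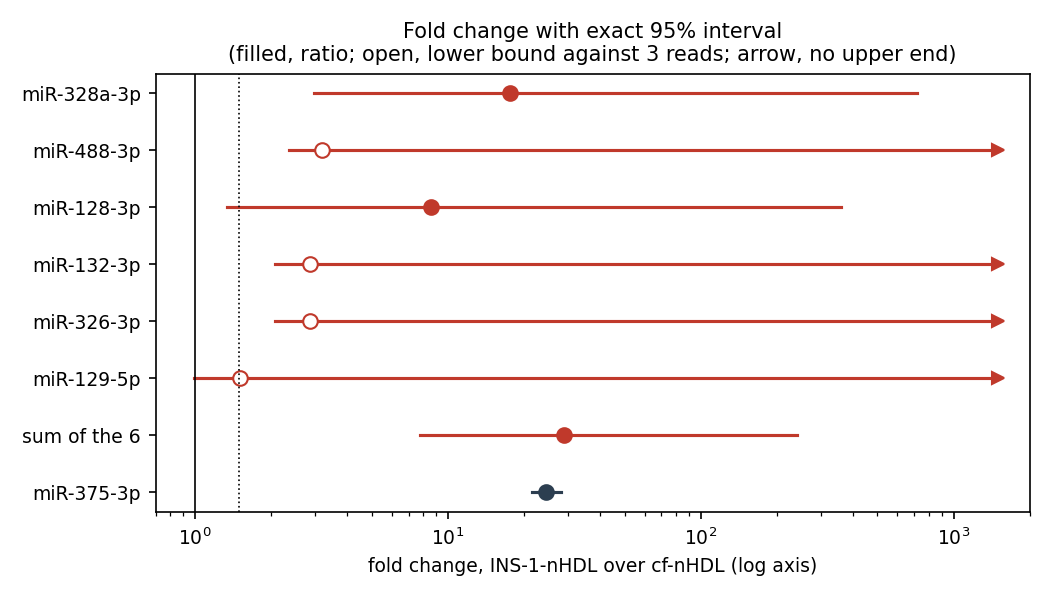
Fold change with cells (INS-1-nHDL) against without (cf-nHDL), on a log axis, for the 6 detected miRNAs, their sum and miR-375-3p, with exact 95% intervals. Filled points are ratios, open points are lower bounds against 3 reads, arrows have no upper end, and the lines mark 1 (solid) and 1.5 (dotted). The sum lies at 28.7 and miR-375-3p at 24.5, inside the interval of the sum.

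The bound or ratio was above 1.5 for 6 of the 6 detected miRNAs, beside 38 of the 81 miRNAs with at least 5 reads (46.9%). The exact interval lay entirely above 1.5 for 4 of the 6 (miR-328a-3p, miR-488-3p, miR-132-3p and miR-326-3p), beside 25 of the 81 (30.9%). On cf-nHDL, 4 of the 6 had 0 reads, beside 17 of the 81 (21.0%), and 6 of the 6 had at most 1 read, beside 20 of the 81 (24.7%). The median of the 6, with bounds at their value, was 3.02-fold, and that of the 81 was 1.17-fold. A miRNA with no or 1 read on cf-nHDL passed the minimum of 5 reads only through INS-1-nHDL and had to be higher there, so nothing is read from these counts beyond the description.

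On INS-1-nHDL, miR-328a-3p made up 30.7% of the reads of the 6 and miR-129-5p 7.89%. miR-328a-3p had 1.84 times the reads of miR-488-3p, the next in order (exact 95% interval 1.03 to 3.41). The reads of miR-488-3p, miR-128-3p, miR-132-3p, miR-326-3p and miR-129-5p, from 19 to 9, did not differ beyond counting error in any pair. The order of these 5 is therefore not resolved. Reads were not corrected for how well each sequence is ligated and amplified, so they are not amounts of molecules.

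**Figure D3:**
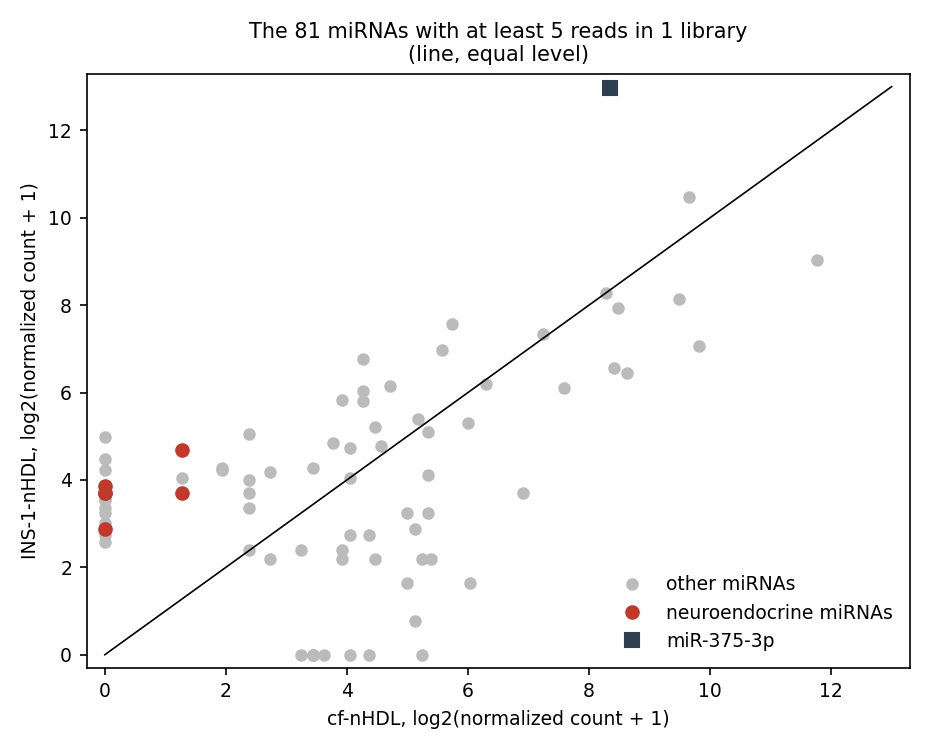
Normalized counts on cf-nHDL (horizontal) and INS-1-nHDL (vertical), as log2 of the count plus 1, for the 81 miRNAs with at least 5 reads in 1 library. The neuroendocrine miRNAs (red) sit at the left edge, at 0 or 1 read on cf-nHDL, among other miRNAs (grey) with as few, while miR-375-3p (dark square) is at the top with 11219 reads with cells against 231 without. Points with equal counts overlap.

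The summed gain of the 6 miRNAs was small beside that of miR-375-3p. In normalized counts, the 6 summed to 80.9 with cells against 2.82 without, a gain of 78.1. miR-375-3p went from 325 to 7965, a gain of 7639, which is 97.8 times that of the 6 together. Their summed gain was thus 1.02% of the gain of miR-375-3p and 0.855% of the gains summed over the 45 of the 81 miRNAs past the minimum that had a higher normalized count on INS-1-nHDL. Among single miRNAs outside the list, 4 gained more than the 6 together, miR-375-3p among them. The nearest on either side were miR-182 (a gain of 89.6) and miR-378a-3p (77.8), both named after their values were seen.

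The summed fold change of the 6 was 28.7 (exact 95% interval 7.77 to 240.1), and that of miR-375-3p was 24.5 (21.5 to 28.0). Set against miR-375-3p inside each library, a comparison that needs no scaling, the 6 had 10.2 reads per 1000 reads of miR-375-3p with cells (8.37 to 12.2) against 8.66 without (1.04 to 31.6). The ratio of these ratios was 1.17, with an exact interval of 0.314 to 9.87. A higher or a lower fold change of the list than of miR-375-3p was therefore not detectable with 2 reads on cf-nHDL, and the interval is too wide to call the fold changes alike. For the single miRNAs the ratio on INS-1-nHDL ran from 0.802 for miR-129-5p to 3.12 for miR-328a-3p per 1000 reads of miR-375-3p. Every one of these lies inside the cf-nHDL interval of the same miRNA, which reaches 16.1 per 1000 even at 0 reads.

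**Figure D4:**
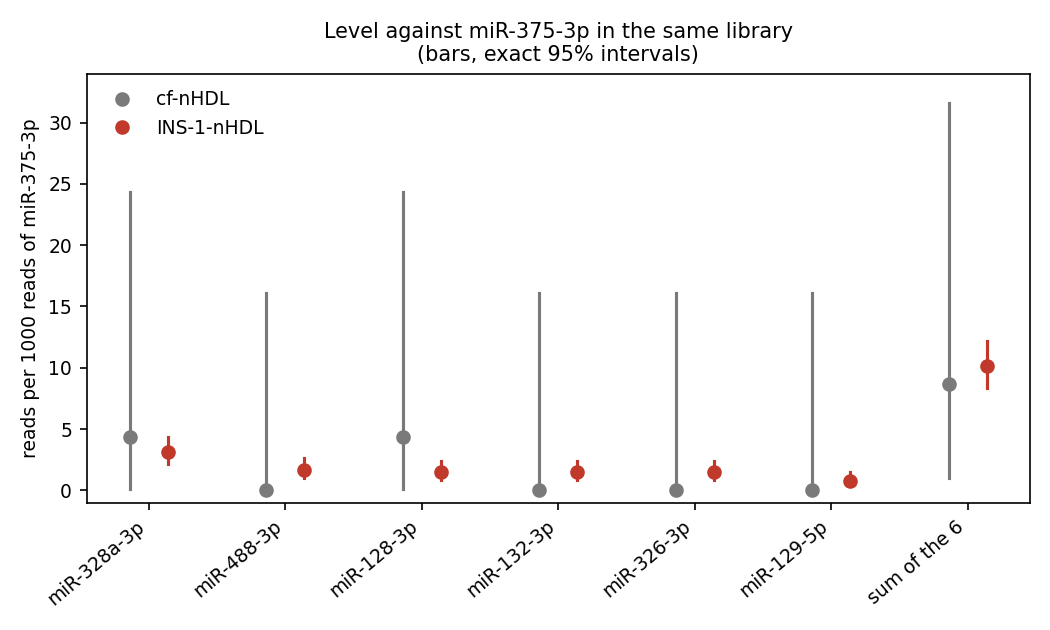
Reads of each detected miRNA and of their sum per 1000 reads of miR-375-3p in the same library, for cf-nHDL (grey) and INS-1-nHDL (red), with exact 95% intervals. The INS-1-nHDL points run from 0.802 to 3.12 for single miRNAs, and the cf-nHDL intervals cover all of them because that library holds only 231 reads of miR-375-3p.

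miR-375-3p takes 62.3% of the miRNA reads with cells against 3.51% without, so the share of every other miRNA depends on whether its reads are counted. Of the miRNA reads other than miR-375-3p, the 6 took 1.68% on INS-1-nHDL (Wilson 95% interval 1.40 to 2.01%) against 0.0315% (0.00863 to 0.115%) on cf-nHDL. Of all miRNA reads they took 0.633% (0.527 to 0.760%) against 0.0304% (0.00833 to 0.111%). By either denominator the intervals do not overlap. The 6 were listed with these reads in view, and they passed the read minimum only through INS-1-nHDL. The shares, and the fold change and counts that follow, therefore describe the list and do not test it. Scaled by total miRNA reads without miR-375-3p, the summed fold change was 53.3 and the interval lay above 1.5 for 6 of the 6, beside 39 of the 81 miRNAs (48.1%), where the size factors gave 4 of the 6.

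The other arms and near relatives of the listed miRNAs gave almost no reads. Of 21 such names, 7 had a row, 6 of these were at 0 in both libraries, and miR-129-2-3p, the other arm of one miR-129 hairpin, had 0 reads with cells and 1 without. Neither of the opposite arms of miR-129-5p had a read on INS-1-nHDL.

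A separate list of 36 other neural and neuroendocrine miRNAs, without the 10 named above, showed no gain in sum. Of these, 29 had a row, 8 had reads and 2 reached 5 reads. Their reads summed to 14 with cells and 15 without, and the fold change was 0.470 (exact 95% interval 0.210 to 1.05). Scaled by total miRNA reads it was 0.341 (0.153 to 0.758), an interval below 1, and with miR-375-3p left out of that total 0.874 (0.391 to 1.94). The 2 that reached the minimum went opposite ways and both belong to the imprinted miRNA cluster that is active in brain. miR-409a-3p had 10 reads on INS-1-nHDL against 0, at least 1.68-fold higher, and miR-127-3p had 0 against 8, with a fold change of at most 0.189. miR-434-3p of the same cluster had 1 against 4, and miR-138-5p had 1 in each.

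miRNAs of blood, vessel, liver and muscle cells, which plasma HDL can carry into the assay, were in sum lower on INS-1-nHDL. This did not hold for each kind of cell. Of 18 names, 15 had a row, 7 were at 0 in both libraries, including the liver miRNA miR-122-5p, and 7 reached 5 reads. Of these 7, 0 were above 1.5-fold and 6 were below 1/1.5, beside 38 (46.9%) and 32 (39.5%) of the 81 miRNAs. The 15 together had 34 reads with cells and 77 without, and the fold change was 0.223 (0.144 to 0.337), or from 0.161 to 0.413 under the other scalings. The red cell miRNA miR-451-5p had 26 reads on cf-nHDL and 5 with cells, and the leukocyte miRNA miR-142-5p had 15 and 5. The lymphocyte miRNA miR-150-5p had 10 and 5 reads, and the muscle miRNA miR-133a-3p had 11 and 8. The vessel miRNAs had few reads, and no fall was resolved for them. miR-126a-5p had 4 and 5 (fold change 0.630, 0.136 to 3.17), and miR-143-3p had 3 and 6 (1.01, 0.215 to 6.23). How far a change in the plasma miRNAs on HDL enters the fold changes of the 6 through the scaling was not tested.

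Outside the list, 11 miRNAs had the same pattern, 9 to 35 reads with cells and at most 1 without. The highest of the 11 were miR-664-2-5p with 30 reads on INS-1-nHDL, miR-98-5p with 25 and miR-532-5p with 22. Next were miR-222-3p with 18, miR-30d-3p with 17 and miR-106b-3p with 15, as many as miR-421-3p. Of the 11, miR-532-5p had 1 read on cf-nHDL and the others 0. miR-532-5p had a fold change of 11.1 (1.79 to 458), and miR-664-2-5p was at least 5.04-fold higher. Above this range of reads, and above every miRNA of the list, lay miR-1224. It had 43 reads on INS-1-nHDL against 0 on cf-nHDL and was at least 7.22-fold higher. Likeness here means reads in both libraries, over 2 libraries only, and most of the 11 are not known as neuroendocrine.

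By base composition the 6 spanned a wide range, from 42.9% G and C in miR-488-3p to 68.2% in miR-328a-3p, with miR-326-3p at 66.7%. Their median of 53.6% stood beside 47.6% over the 81 miRNAs. All 6 were 21 or 22 bases long, and the median of the 81 was 22. miR-326-3p and miR-328a-3p share a run of 8 bases, GCCCTTCC, searched on the given strand. It starts at base 13 of miR-328a-3p and at base 8, the last of the seed, of miR-326-3p, and it occurs in 3 of the 406 sequences (0.739%), the third being miR-1249. That run was picked as the longest shared by any pair of the 6 and is a description only.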

How the data were processed

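Small RNA was sequenced from 1 cf-nHDL and 1 INS-1-nHDL library, and groups came from the sample titles. The authors trimmed adapters (Cutadapt), retained reads longer than 16 nt, aligned them to the rat genome with Bowtie 1.1.2 and 1 mismatch, and deposited expected counts per mature miRNA without normalization. A second deposited table holds whole-number counts of 81 miRNAs, beside fold changes and p-values of the authors' DESeq2 1.18.1 comparison, which were not used. Its counts equal the rounded counts used here for all 81. The 9 listed miRNAs have no fractional counts. The human or rat origin of reads was not analysed here.

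Expected counts were rounded, and miRNAs with at least 5 reads in 1 library were kept. Size factors came from DESeq2 1.42.0 in R 4.3.3, over 56 miRNAs with reads in both libraries. With 1 library per condition no p-value was computed. Fold intervals are exact at 95% (scipy 1.17.1), from the Clopper-Pearson interval of the INS-1-nHDL share of a miRNA's reads. The ratio of ratios has a conditional exact interval. The interval code was tested on simulated data. Alternatives were edgeR 4.0.16 TMM, total miRNA reads with and without miR-375-3p, other size factors, unrounded counts, other minimums, a pseudocount of 1 and other sums.

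Members and lists were chosen with earlier results of these data known. Named were all members, miR-375-3p, up to 4 miRNAs per list with the most reads, and up to 6 others most like the members. miRNAs named for a shared seed, run or gain, and miR-122-5p, miR-126a-5p, miR-143-3p and miR-1224, were named after the values were seen.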

Additional observations from a re-analysis of the deposited data

How the results depend on the processing

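No paired analysis was possible because only 1 library was made per condition, which also left no replicate to omit. A change of scaling moves every log2 fold change equally, by 0.04 with TMM, -0.46 with total miRNA reads and 0.89 with that total less miR-375-3p. The summed fold change, 28.7, was 29.6, 20.8 and 53.3 in that order, 26.5 from members with at least 10 reads, 19.2 with opposite arms and paralogs, and 39.8 without miR-328a-3p. The summed gain as a percent of that of miR-375-3p, 1.02%, was 0.716% without miR-328a-3p, since that miRNA holds 35 of the 114 reads, and stayed between 0.939% and 1.03% under the other alternatives. Members above 1.5-fold were 5 in place of 6 under total miRNA reads (beside 37.0% of the 81 miRNAs) and with at least 10 reads (beside 52.2% of 69), as miR-129-5p drops below the threshold or out of the set. Members with the interval above 1.5 were 4 under the other scalings, read minimums and unrounded counts (beside 13 of the 81 miRNAs under total miRNA reads, and 20.8% to 36.2% of all miRNAs otherwise), apart from 6 with the total less miR-375-3p (beside 48.1%). Of 36 fold changes of single members under alternatives, all 36 were above 1, and 33 stayed within the interval of the main value. The 3 that moved were miR-488-3p (2.32), miR-132-3p and miR-326-3p (2.07 each) when scaled by total miRNA reads. With 0 reads on cf-nHDL that interval has no upper end, so a rise could not count as a move. A pseudocount of 1 gave 14.5 for miR-488-3p, 13.1 for miR-132-3p and miR-326-3p, and 7.39 for miR-129-5p. It gave 10.7 for miR-328a-3p and 5.43 for miR-128-3p. Unrounded counts, or size factors limited to well-covered miRNAs, gave identical values. The reads on cf-nHDL, 2 in all, limit every value.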
